A study of Mus musculus with 7 samples.

Results

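A set of 9 marker genes of striatal projection neurons, Ppp1r1b, Pde10a, Rgs9, Adora2a, Drd1, Drd2, Scn4b, Rasd2 and Tac1, were followed in cortex samples, where they were counted in every well. These 9 of the 20859 genes in the deposited count table are known striatal markers and were chosen by values measured in these samples. They were selected on their lower level in cortex of FAD IgG mice than of WT mice, their lower level in hippocampus than in cortex and their joint movement between cortex wells. These 3 properties are therefore described without a test.

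The striatum is a forebrain structure that lies beneath the cortex, and most of its cells are inhibitory medium spiny projection neurons. These neurons turn dopamine and adenosine signals into changes of cyclic AMP. Cells of the direct pathway carry the D1 dopamine receptor and substance P, and cells of the indirect pathway carry the D2 dopamine receptor, the adenosine receptor encoded by Adora2a and enkephalin. Several of these genes are also used outside the striatum. Ppp1r1b and Drd1 are known from deep-layer cortical neurons, and Tac1 is known from some interneurons.

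The mice were of 3 groups, and the labels give neither age nor sex. FAD CD38 mice had the genotype labelled FAD, the study's model of Alzheimer's disease, and the CD38 injection, named after the NAD-consuming surface enzyme that the study set out to target. FAD IgG mice had the same genotype and received IgG. WT PBS mice were wild type and had PBS, so genotype and injection differ together in any comparison with WT. The labels name the model only as FAD, without promoter or strain. Cortex was counted in 7 FAD CD38, 7 FAD IgG and 9 WT PBS mice, and hippocampus in 7, 7 and 8 of the same mice. For 1 further mouse the injection differed between the well name and the sample sheet, and its 2 wells entered no comparison between groups. The assay was mcSCRB-seq, in which the 3′ end of each transcript is tagged with a barcode per well and many wells are sequenced as 1 pool. The 47 wells lay in 7 pools, and a pool held mice of several groups.

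Promoter sequences are shown for the 4 genes whose levels followed the others most closely between cortex wells, described further on. RefSeq promoter windows on build GRCm38.p6 were at hand for 7 of the 9 genes. The stretches below run 5′ to 3′ on the strand of the gene, starting 250 bases before the RefSeq start and ending at that start or before the first exon annotated in GENCODE. Capitals mark exact matches, on either strand, to GGGCGG (the GC box) or TGACG (the cyclic AMP response element half-site).
Rgs9, chr11:109298182-109298431, minus strand: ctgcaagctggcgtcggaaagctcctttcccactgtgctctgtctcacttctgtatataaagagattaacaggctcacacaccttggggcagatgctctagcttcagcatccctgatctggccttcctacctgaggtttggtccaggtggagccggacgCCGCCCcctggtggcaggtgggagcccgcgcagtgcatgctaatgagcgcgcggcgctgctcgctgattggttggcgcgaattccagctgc
Drd1, chr13:54055706-54055908, minus strand: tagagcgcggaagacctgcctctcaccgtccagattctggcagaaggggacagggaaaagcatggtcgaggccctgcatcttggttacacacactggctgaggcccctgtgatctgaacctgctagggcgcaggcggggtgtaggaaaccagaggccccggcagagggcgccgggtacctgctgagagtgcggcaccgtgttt
Drd2, chr9:49340153-49340402, plus strand: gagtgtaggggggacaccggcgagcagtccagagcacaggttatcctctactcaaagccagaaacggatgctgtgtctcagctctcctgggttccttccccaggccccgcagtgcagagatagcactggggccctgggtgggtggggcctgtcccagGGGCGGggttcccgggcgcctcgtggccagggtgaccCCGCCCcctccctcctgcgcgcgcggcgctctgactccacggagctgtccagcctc
Tac1, chr6:7554811-7554878, plus strand: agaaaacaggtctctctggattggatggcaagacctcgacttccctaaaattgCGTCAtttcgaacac
Over the full 250 bases, Tac1 was the only gene of the 7 with TGACG on either strand, at 2 places, and 17.8% of all 32851 promoter windows held it. The GC box was found in 5 of the 9 windows of the 7 genes (Pde10a at 1 start, Rgs9, Drd1 at a second RefSeq start, Drd2 and Tac1), and 32.7% of all windows held it. TGACAG, the core bound by MEIS factors, and AGGTCA, the half-site of nuclear receptors, were found in none of the 9 windows of these genes, against 15.9% and 14% of all windows. The motif of the response element, the MEIS core and the reverse complement of the nuclear receptor half-site share their first 4 letters, so at most 1 of them can match at a given place on a strand.

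Wells held between 1270918 and 5101368 counts in all, and the cortex medians were 2890018 for FAD CD38, 3090289 for FAD IgG and 3509152 for WT PBS. Levels are counts scaled to the total of the well (CPM), and since only 3′ ends were counted they are compared between wells and not between genes. The hippocampus and cortex dissections were separable by markers of each region. Of 8 hippocampal markers tested, 8 were called higher in hippocampus (median log2 fold change 4.05, hippocampus over cortex), and of 16 cortical layer markers 13 were called lower there (median -1.34). Of all 12434 genes, 2988 were called higher in hippocampus and 2820 lower. In bulk tissue, fewer cells of a type and less RNA per cell cannot be told apart. How much striatal tissue each cortex well held was not measured, and its part in the levels of the set was not tested.

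The intracellular signalling genes differed in how far their FAD wells lay from WT. Ppp1r1b encodes DARPP-32, an inhibitor of protein phosphatase 1 that is switched on by protein kinase A. It ran from 73.95 to 249.5 CPM with a median of 212.6 in FAD CD38 cortex, from 96.74 to 271.6 with a median of 151.1 in FAD IgG cortex, and from 127.5 to 330.2 with a median of 189.0 in WT PBS cortex. These ranges overlapped widely, and the FAD CD38 median lay above the WT median. Pde10a encodes a phosphodiesterase that breaks down cyclic AMP and cyclic GMP. Its lowest, median and highest values were 22.21, 24.91 and 40.47 CPM in FAD CD38 cortex, 11.41, 26.60 and 43.36 in FAD IgG cortex, and 23.40, 31.10 and 39.44 in WT PBS cortex. The FAD IgG wells held both the lowest and the highest Pde10a values of the 3 groups.

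Rgs9 and Rasd2 showed a clearer offset. Rgs9 encodes a regulator that speeds the shut-off of G proteins, and its long splice form is the striatal one. It ran from 6.933 to 25.45 CPM with a median of 19.65 in FAD CD38 cortex, from 6.077 to 30.54 with a median of 18.69 in FAD IgG cortex, and from 18.01 to 38.00 with a median of 28.37 in WT PBS cortex. All 7 FAD CD38 wells and 6 of 7 FAD IgG wells lay below the WT median. Rasd2 encodes Rhes, a small GTPase of striatal neurons. Its lowest, median and highest values were 41.23, 56.85 and 82.25 CPM in FAD CD38 cortex, 37.54, 57.44 and 77.89 in FAD IgG cortex, and 54.29, 83.45 and 102.6 in WT PBS cortex. Every FAD well lay below the WT median, while 4 of 7 wells in either FAD group stayed within the WT range.

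Among the receptor genes, Drd1 rested on 12 to 115 counts per cortex well, Drd2 on 2 to 54 and Adora2a on 2 to 15. Drd1, the Gs-coupled dopamine receptor of the direct pathway, ran from 5.546 to 27.53 CPM with a median of 10.73 in FAD CD38 cortex, from 4.891 to 17.22 with a median of 10.03 in FAD IgG cortex, and from 14.73 to 27.57 with a median of 22.51 in WT PBS cortex. All 7 FAD IgG wells were below the WT median, and 5 of them were below the lowest WT well. Drd2, the Gi-coupled receptor of the indirect pathway, ran from 0.9243 to 6.934 CPM with a median of 5.190 in FAD CD38 cortex, from 0.7841 to 10.18 with a median of 3.934 in FAD IgG cortex, and from 2.572 to 10.91 with a median of 8.797 in WT PBS cortex. Adora2a, the Gs-coupled adenosine receptor of the same neurons, ran from 0.9072 to 2.503 CPM with a median of 1.038 in FAD CD38 cortex, from 0.5881 to 4.926 with a median of 1.640 in FAD IgG cortex, and from 2.728 to 4.810 with a median of 3.144 in WT PBS cortex. Its FAD CD38 and WT PBS ranges did not overlap, and it was the only gene of the 9 for which they did not. Among all 12968 genes tested in cortex, 0.0694% had FAD CD38 wells all below all WT wells. Those WT wells had a part in choosing the genes, so nothing is read from the gap of Adora2a. FAD IgG and WT PBS ranges overlapped for all 9 genes, while 0.0308% of all genes had FAD IgG wells all below all WT wells, and nothing is read from this count.

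The sodium channel gene and the neuropeptide gene also had lower medians in both FAD groups than in WT. Scn4b, an auxiliary sodium channel subunit that promotes resurgent current, ran from 19.41 to 30.87 CPM with a median of 25.12 in FAD CD38 cortex, from 15.09 to 27.88 with a median of 22.99 in FAD IgG cortex, and from 26.74 to 41.22 with a median of 30.95 in WT PBS cortex. In either FAD group 6 of 7 wells lay below the lowest WT well. Tac1, the precursor of substance P, ran from 19.87 to 40.74 CPM with a median of 25.01 in FAD CD38 cortex, from 12.94 to 65.68 with a median of 22.29 in FAD IgG cortex, and from 28.58 to 69.25 with a median of 48.89 in WT PBS cortex. All 7 FAD CD38 wells were below the WT median of Tac1, and 2 FAD IgG wells were above it. Summed over the 9 genes, levels averaged 367.1 ± 71.6 CPM in FAD CD38 cortex, 336.7 ± 115.0 CPM in FAD IgG cortex and 470.4 ± 90.0 CPM in WT PBS cortex (SD, n = 7, 7 and 9). Ppp1r1b alone averaged 187.8, 163.2 and 215.2 CPM in these groups, so a large part of each sum is that gene.

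**Figure D1:**
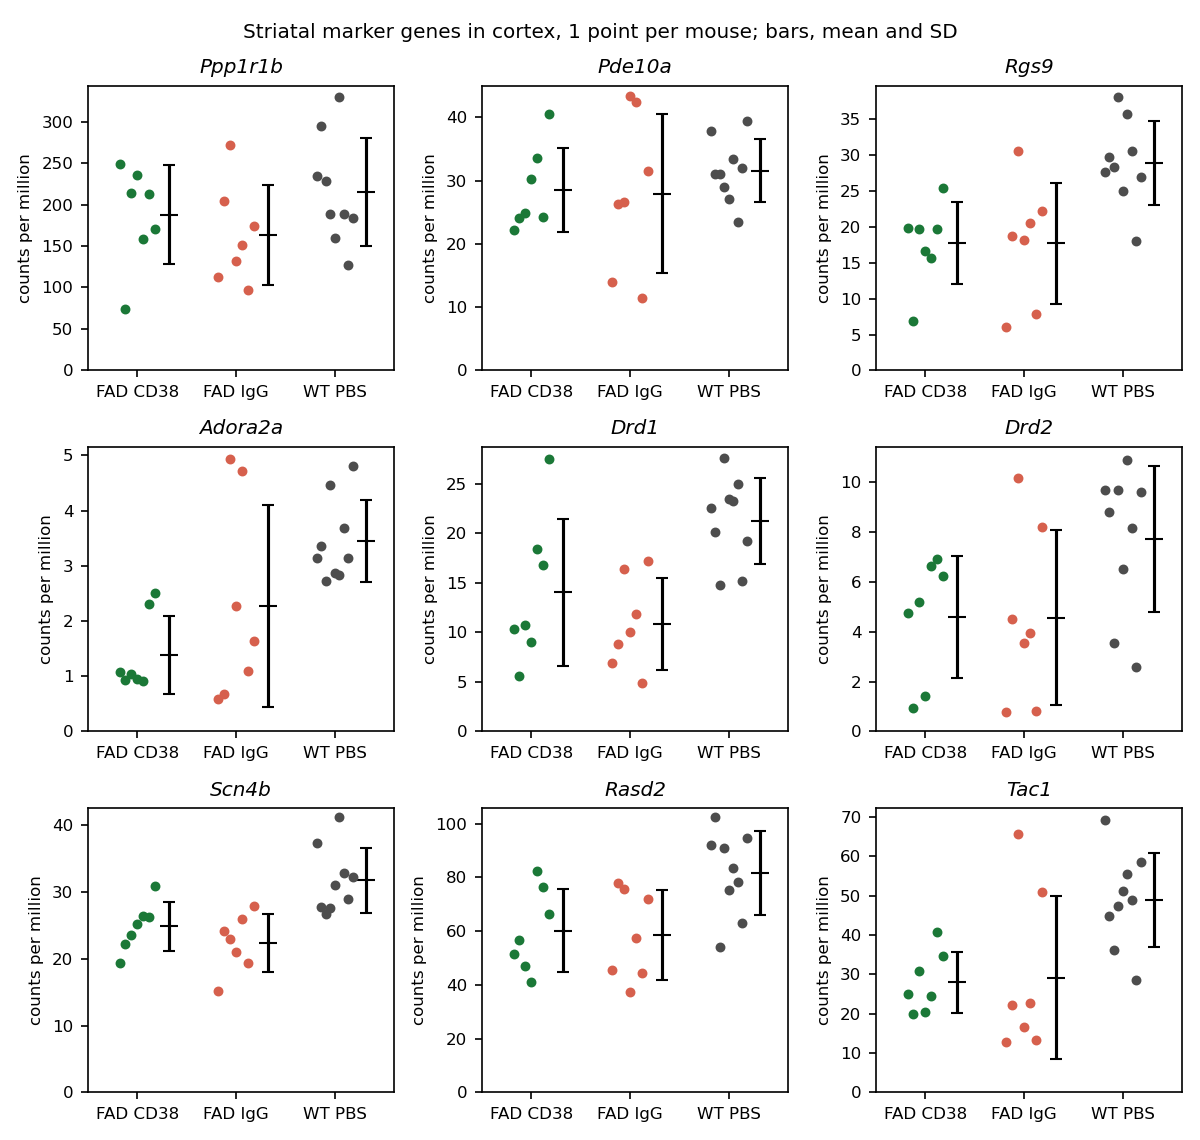
Level in CPM of the 9 striatal marker genes in cortex (vertical axis from 0), 1 point per mouse, for FAD CD38 (n = 7), FAD IgG (n = 7) and WT PBS (n = 9), with the mean and SD beside the points. FAD IgG and WT PBS points overlap in every panel, and FAD CD38 and WT PBS points do so in every panel except Adora2a, where all FAD CD38 points lie below all WT points.

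In FAD IgG cortex against WT cortex the 9 fold changes were all below 0. They were estimated by edgeR over all 12968 genes with the pool in the model, and this is the contrast that helped to choose the genes. The log2 fold changes were -1.02 ± 0.30 (SE) for Drd1, -0.83 ± 0.48 for Drd2, -0.82 ± 0.38 for Tac1 and -0.78 ± 0.27 for Rgs9. They were -0.62 ± 0.37 for Adora2a, -0.57 ± 0.15 for Scn4b, -0.54 ± 0.18 for Rasd2, -0.50 ± 0.21 for Ppp1r1b and -0.26 ± 0.26 for Pde10a. The median of the 9 was -0.62, and the median of all genes was 0.01. Scn4b was 1 of 9 genes past an adjusted p of 0.05 on the lower side, where 0.532% of all genes were, and nothing is read from this count. The count was 0 when any 1 of pools 5, 8, 9, 10 and 11 was left out and 7 without pool 7. Over all genes, 210 of 12945 were called lower without pool 7, against 69 of 12968 with every pool. Without pools 5, 8, 9, 10 and 11 these were 15, 44, 16, 57 and 24 genes. The fold change of Scn4b itself stayed at -0.57, -0.57 and -0.60 when pools 8, 9 and 10 were removed, and was -0.50 and -0.415 when pools 11 and 5 were. Pool 7 held the FAD IgG well of highest mean level and the WT wells of lowest and second-lowest mean level.

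FAD CD38 cortex was compared with the same WT mice, so its values share those wells with the contrast above. Those WT wells had a part in choosing the genes, so this contrast is not independent of that choice. Its p-values and counts are given as descriptions, and nothing is read from them. Adora2a had the largest difference of the set, with a log2 fold change of -1.22 ± 0.39 (SE), and was lower within all 7 pools (edgeR quasi-likelihood test, Benjamini-Hochberg adjusted p = 0.0723). Tac1 stood at -0.85 ± 0.35 (adjusted p = 0.205), Drd2 at -0.79 ± 0.45 (0.382), Rgs9 at -0.75 ± 0.25 (0.102) and Drd1 at -0.70 ± 0.28 (0.182). Rasd2 stood at -0.49 ± 0.18 (adjusted p = 0.126) and Scn4b at -0.42 ± 0.14 (0.104). Ppp1r1b at -0.25 ± 0.20 (adjusted p = 0.556) and Pde10a at -0.18 ± 0.25 (0.753) lay closest to 0. By edgeR 0 of the 9 passed, against 1.23% of all genes called lower, and 6 of the 9 had an unadjusted p under 0.05. DESeq2 called 2 of the 9 lower, and 314 of all 12968 genes. The count was 5 when FAD CD38 and WT wells alone were fitted, 2 without pool 11 and 1 without pool 10. Adora2a did not pass the filter on low counts in the fit of FAD CD38 and WT wells alone. Over all genes, 303 of 12572, 48 of 12954 and 293 of 12927 were called lower in these fits, in that order.

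Between FAD CD38 and FAD IgG cortex no gene of the set passed the test. The FAD IgG wells of this contrast also had a part in choosing the genes, so it is not independent of that choice. The log2 fold changes were -0.60 ± 0.45 (SE) for Adora2a, 0.32 ± 0.32 for Drd1 and 0.25 ± 0.22 for Ppp1r1b. The other 6 lay between -0.03 for Tac1 and 0.15 for Scn4b. Every adjusted p of edgeR was 1 after rounding, 0 of the 9 had an unadjusted p under 0.05, and DESeq2 called 0. Of all 12968 genes 0% were called, and 0 were with DESeq2. The standard errors of 0.16 to 0.52 set the size of change that 7 mice per group could resolve for these genes.

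**Figure D2:**
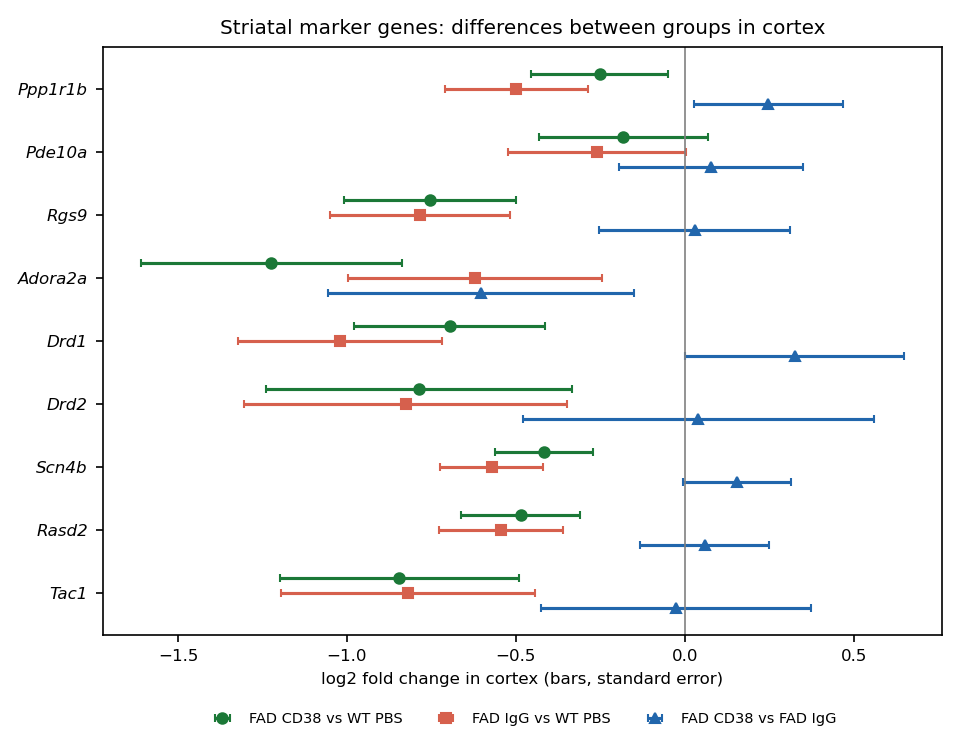
Log2 fold changes in cortex (horizontal axis) of the 9 genes, with standard errors as bars, for FAD CD38 against WT PBS (circles), FAD IgG against WT PBS (squares) and FAD CD38 against FAD IgG (triangles). Both contrasts with WT lie below 0 for every gene and share the WT mice, and the contrast within FAD lies between -0.60 and 0.32.

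Other genes of the striatum and of its signalling were looked at as lists, which were written with earlier results of these data known. The contrasts also share wells with the choice of the 9 genes. Of 22 further striatal markers tested in cortex, 21 were below 0 in FAD CD38 against WT (median log2 fold change -0.43) and 1 passed on the lower side, the striatal-enriched phosphatase gene Ptpn5 (-0.46 ± 0.11, adjusted p = 0.0175, edgeR). Ptpn5 followed the 9 genes only loosely between cortex wells. It had r = 0.295 with their mean z-score, described further on, and -0.05 with group means subtracted. In FAD IgG against WT 21 of 22 were below 0 as well (median -0.42), and 1 passed, the calmodulin-dependent phosphodiesterase gene Pde1b (-0.65 ± 0.15, adjusted p = 0.0103, edgeR). Pde1b had r = 0.68 with that mean z-score, and 0.50 with group means subtracted. Of all genes, 47.5% were below 0 in FAD CD38 against WT and 48.3% in FAD IgG against WT, and 1.23% and 0.532% were called lower. Of 24 genes for kinases, phosphatases and G protein partners that work with DARPP-32 and Rgs9, 0 passed in either contrast, with medians of 0.03 in FAD CD38 against WT and -0.04 in FAD IgG against WT. Cdk5r1, the activator of the kinase Cdk5, was at 0.42 ± 0.14 in FAD CD38 against FAD IgG (adjusted p = 1). Of 12 relatives of the 9 genes, such as adenosine A1 receptor and other sodium channel beta subunits, 0 passed in either contrast with WT (medians 0.06 and 0.04).

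The 9 genes moved together between cortex wells. Over the 24 cortex wells, the well of the mouse with conflicting labels included, all 36 pairs had a positive Pearson r of log2 CPM (prior count 2). Their median was 0.68 and their range 0.33 to 0.89, with a median Spearman rho of 0.63. The wells share pools, and genes counted in the same libraries are not independent, so these are descriptions. Rgs9 and Drd2 were the closest pair (r = 0.89), followed by Drd2 and Tac1 (0.87) and Drd1 and Drd2 (0.86). Pde10a with Rasd2 and Ppp1r1b with Adora2a were the loosest (0.33 each). Without the 2 wells farthest from the median the median r was 0.54, with each group's mean subtracted 0.58 and with each pool's mean subtracted 0.71. Within groups it was 0.50 in FAD CD38, 0.71 in FAD IgG and 0.39 in WT PBS wells (7, 7 and 9 wells).

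Single genes differed in how closely they followed the rest. Against the mean of the other 8, r was 0.91 for Rgs9 and Drd2, 0.90 for Drd1, 0.89 for Tac1 and 0.81 for Scn4b. It was 0.73 for Rasd2, 0.70 for Adora2a, 0.62 for Ppp1r1b and 0.58 for Pde10a. Without the 2 outermost wells Pde10a had 0.20, the largest change of the 9. Genes of the direct pathway (Drd1, Tac1) and of the indirect pathway (Drd2, Adora2a) were high and low in the same wells, with r = 0.91 between the means of each pair (rho 0.89, and r = 0.87 without the 2 outermost wells). Over each group's cortex wells the counts of Drd1 were 2.86 times those of Drd2 in FAD CD38, 2.45 times in FAD IgG and 2.78 times in WT PBS. In hippocampus the 36 pairs had a median r of 0.13 over 23 wells, from -0.59 to 0.57, and many of those values rest on a few counts per well.

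**Figure D3:**
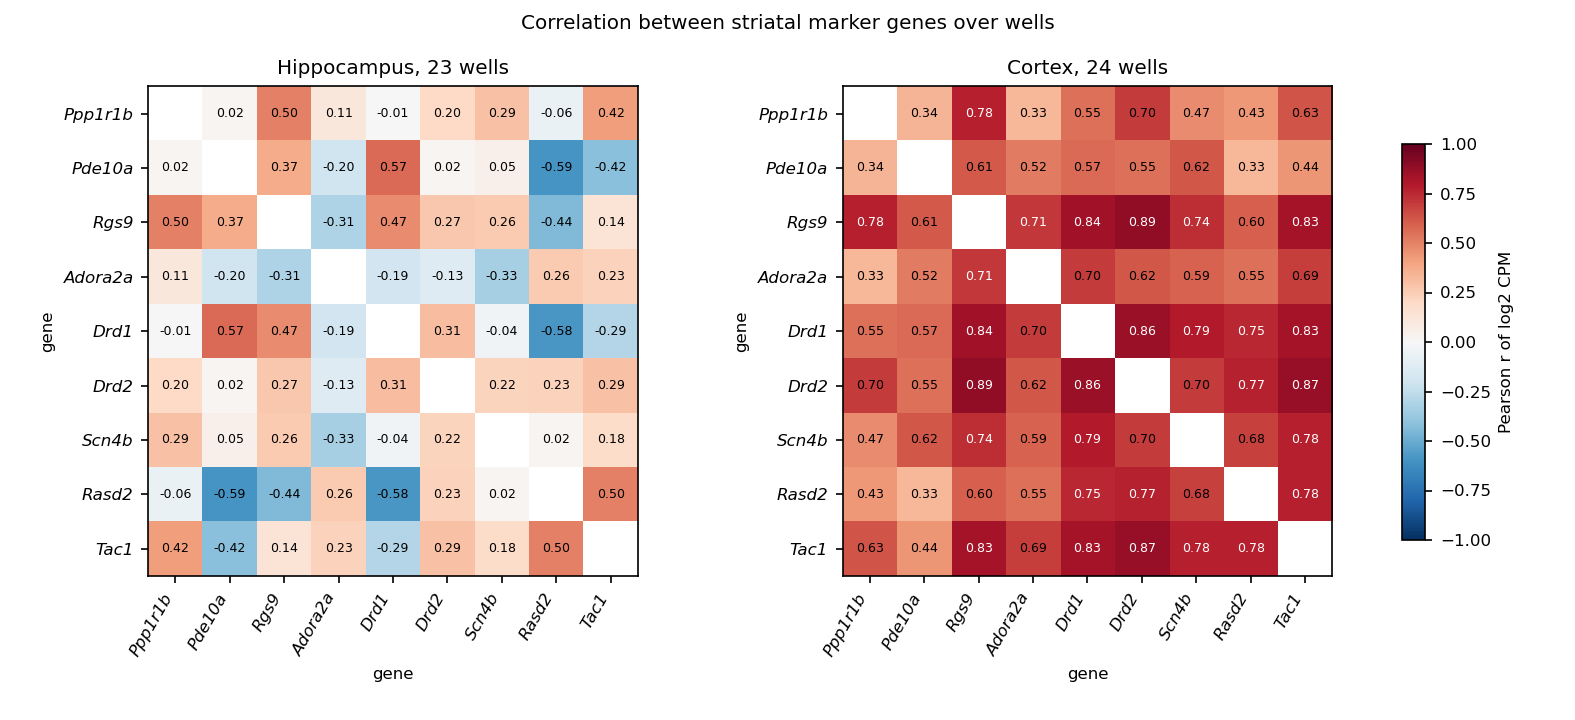
Pearson r of log2 CPM between each pair of the 9 genes over 23 hippocampus wells (left) and 24 cortex wells (right), on a colour scale from -1 to 1. All cortex pairs are positive (0.33 to 0.89), and the hippocampus pairs lie on both sides of 0 (-0.59 to 0.57).

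The level of the set in each cortex well was summarised as the mean z-score of the 9 genes over cortex wells. It ran from -1.36 to 0.502 with a median of -0.336 in FAD CD38 wells, from -1.85 to 0.675 with a median of -0.331 in FAD IgG wells, and from -0.0766 to 1.14 with a median of 0.823 in WT PBS wells. The lowest wells were FAD IgG replicate 1 (pool 5), FAD IgG replicate 6 (pool 11) and FAD CD38 replicate 2 (pool 5), at -1.85, -1.78 and -1.36. Wells of 1 pool could lie far apart, since pool 5 held both the lowest FAD well and the second-highest WT well (1.04). The median biological coefficient of variation of the 9 genes within groups and pools was 0.325 in cortex, against 0.176 over all genes. The 9 ran from 0.178, hardly above the value of all genes, to 0.59. Joint movement between cortex wells helped to choose the genes, so nothing is read from this difference.

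**Figure D4:**
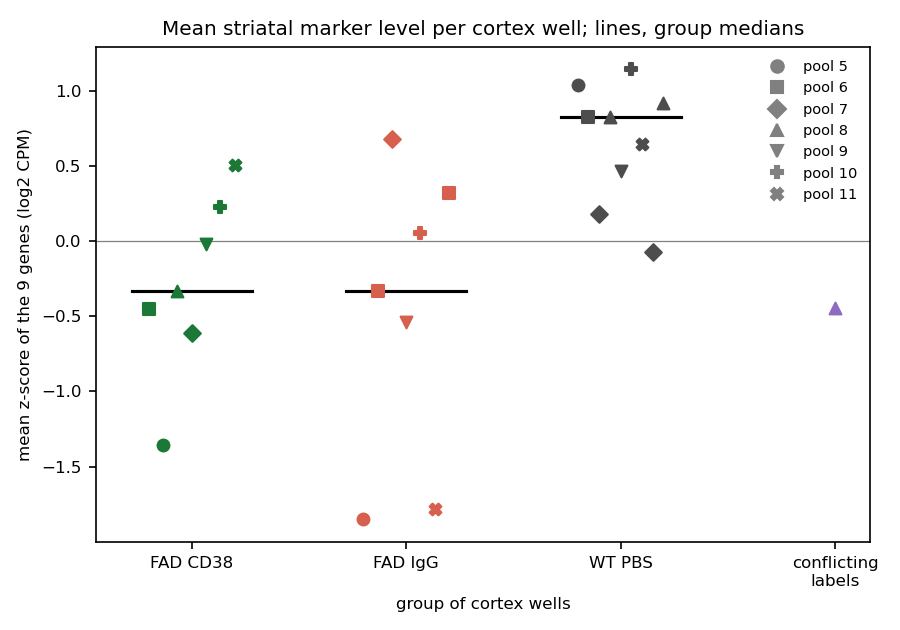
Mean z-score of the 9 genes per cortex well (vertical axis), by group, with a symbol for each of the 7 pools and a line at each group's median; the well of conflicting labels stands apart at the right. The FAD CD38 median is -0.336, the FAD IgG median -0.331 and the WT PBS median 0.823, with overlap between groups.

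The genes outside the set that followed it most closely in cortex were mostly further striatal genes. Among 12959 other genes the highest r with the mean z-score of the set was that of Syndig1l (0.96 over 24 wells), and the closest also included the orphan receptor gene Gpr6 (0.94), Lrrc10b (0.94) and Gng7, a G protein gamma subunit (0.93). Further genes among the 10 closest were the homeobox gene Six3 (0.89), Adcy5, the main striatal adenylyl cyclase (0.88), the enkephalin precursor gene Penk (0.86), Gpx6 (0.85) and the retinoid receptor gene Rxrg (0.83). Of the 10 closest, 9 were on the list of further striatal markers, which was written with earlier results known. The median r over all 12959 genes was -0.12, 13 genes were above 0.8, and the 22 further striatal markers had a median of 0.64. After each group's mean was subtracted, 9 of the 10 were again among the 10 closest.

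Their levels showed the same spread. Syndig1l averaged 13.8 ± 8.07 CPM in FAD CD38, 14.5 ± 10.4 CPM in FAD IgG and 33.7 ± 11.4 CPM in WT PBS cortex (SD, n = 7, 7 and 9). Penk averaged 87.2 ± 31.2 CPM in FAD CD38, 84.5 ± 52.1 CPM in FAD IgG and 146.8 ± 37.1 CPM in WT PBS cortex. For both genes the SD within a group was a large part of the difference between groups. Lrrc10b and Gng7 did not share the set's difference between regions, with 51.8 ± 15.2 CPM in hippocampus against 37.5 ± 21.9 CPM in cortex for Lrrc10b and 69.3 ± 12.9 against 70.2 ± 29.4 CPM for Gng7. Pdyn, the dynorphin precursor of direct-pathway neurons, did not follow the set in cortex (r = -0.11).

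Other cell types and library measures were set beside the mean z-score of the set, as descriptions over 24 cortex wells. The further striatal list had r = 0.95, the cortical layer list -0.56 and the excitatory neuron list -0.57, and with group means subtracted these were 0.91, -0.52 and -0.48. For the inhibitory neuron list r was -0.28, with -0.46 after group means were subtracted and -0.14 without the 2 outermost wells. Lists named after structures and cells around the cortex gave 0.59 for basal forebrain cholinergic neurons, 0.44 for dopamine terminals, 0.38 for choroid plexus, 0.35 for claustrum, 0.24 for hippocampus and -0.29 for thalamus, and these rest on 2, 1, 2, 5, 5 and 7 genes that passed the filter. The first 3 values are those of Chat and Zic1, of Ddc alone, and of Ttr and Enpp2. Whether these RNAs came from the structures that name the lists was not tested. With group means subtracted, the cholinergic value was again 0.59 and that of choroid plexus 0.48, while without the 2 outermost wells they were 0.25 and 0.27. Both relations were weaker without those wells, the cholinergic one most. Oligodendrocyte markers had r = 0.03, and 0.46 with group means subtracted, and astrocyte markers -0.45 and 0.36. Of the 5 hippocampal markers, 4 were below 0 in each contrast of FAD with WT cortex, with medians of -0.68 in FAD CD38 and -0.53 in FAD IgG. Cabp7, a calcium-binding protein gene, passed among them in FAD CD38 against WT (-0.75 ± 0.21, adjusted p = 0.0453, edgeR). Of all genes, 47.5% were below 0 in FAD CD38 against WT and 48.3% in FAD IgG against WT. The 10 hippocampal markers summed to 255.0 to 366.3 CPM in FAD CD38, 288.2 to 382.5 CPM in FAD IgG and 298.5 to 375.6 CPM in WT PBS cortex, with Dsp at 0 in FAD IgG cortex. The cholinergic markers summed to 7.979 to 20.02 CPM in FAD CD38, 3.532 to 17.31 CPM in FAD IgG and 9.698 to 15.87 CPM in WT PBS cortex, and neither of the 2 tested passed in either contrast with WT. The 3 groups overlapped in both sums.

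The microglia list had r = -0.64 and -0.11 with group means subtracted. All 8 microglia genes were above 0 in both contrasts of FAD with WT cortex, and 6 passed in each. Over all 12968 genes, 428 were called higher in FAD CD38 against WT and 433 in FAD IgG against WT. The microglia list summed to 463.0 to 939.8 CPM in FAD CD38, 609.6 to 886.7 CPM in FAD IgG and 174.1 to 254.5 CPM in WT PBS cortex, with no gene of the list at 0. The summed cortical layer markers were 898.2 to 1428 CPM in FAD CD38, 928.9 to 1331 CPM in FAD IgG and 756.3 to 1260 CPM in WT PBS cortex, again with no gene at 0. Of these, 0 of 16 passed in either contrast with WT. Total counts had r = -0.15, the ribosomal RNA share 0.16 and the mitochondrial share 0.35. The ribosomal RNA share was that of mt-Rnr1, mt-Rnr2 and n-R5-8s1. Since mt-Rnr1 and mt-Rnr2 also count toward the mitochondrial share, these shares are not separate measures. The part of any of these in the lower levels of the set in FAD cortex was not tested.

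Hippocampus held less of every gene of the set than cortex of the same mice. Of the 9 genes 7 passed the filter on low counts, and 7 of 7 were called lower in hippocampus, where 22.7% of all 12434 genes were, and since this contrast helped to choose the genes nothing is read from the count. The log2 fold changes, hippocampus over cortex with the mouse as block, were -2.89 ± 0.13 (SE) for Scn4b, -2.46 ± 0.11 for Ppp1r1b and -2.13 ± 0.15 for Tac1. They were -1.98 ± 0.27 for Drd1, -1.77 ± 0.13 for Rgs9, -1.06 ± 0.08 for Rasd2 and -1.03 ± 0.10 for Pde10a. Adora2a and Drd2 did not pass the filter, with 15 and 47 counts over all 23 hippocampus wells. With no filter on low counts 9 of 9 genes were called lower, as were 3355 of all 20859 genes. In 23 of 23 mice Ppp1r1b, Pde10a, Rgs9, Scn4b, Rasd2 and Tac1 were lower in hippocampus, and in 22 of 23 Drd1, Drd2 and Adora2a were.

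The separation of the regions differed between genes. Ppp1r1b ran from 22.65 to 52.39 CPM with a median of 33.51 in hippocampus, against 73.95 to 330.2 with a median of 188.5 in cortex. Scn4b ran from 0.4819 to 5.679 CPM in hippocampus and from 15.09 to 41.22 CPM in cortex. For these genes and Tac1 the ranges did not overlap, as was so for 0.828% of all genes with hippocampus below cortex. Pde10a and Rasd2 had hippocampal means of 0.498 and 0.472 times their cortex means, the highest ratios of the 9. The set as a whole showed no positive relation between the regions of a mouse, since the mean z-score of the set in hippocampus had r = -0.16 with that in cortex (rho -0.11, 23 mice, and r = -0.22 without the 2 outermost mice). Single genes ran from r = -0.57 for Drd1, with hippocampal values resting on 2 to 26 counts, to 0.40 for Rasd2 and 0.45 for Pde10a.

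**Figure D5:**
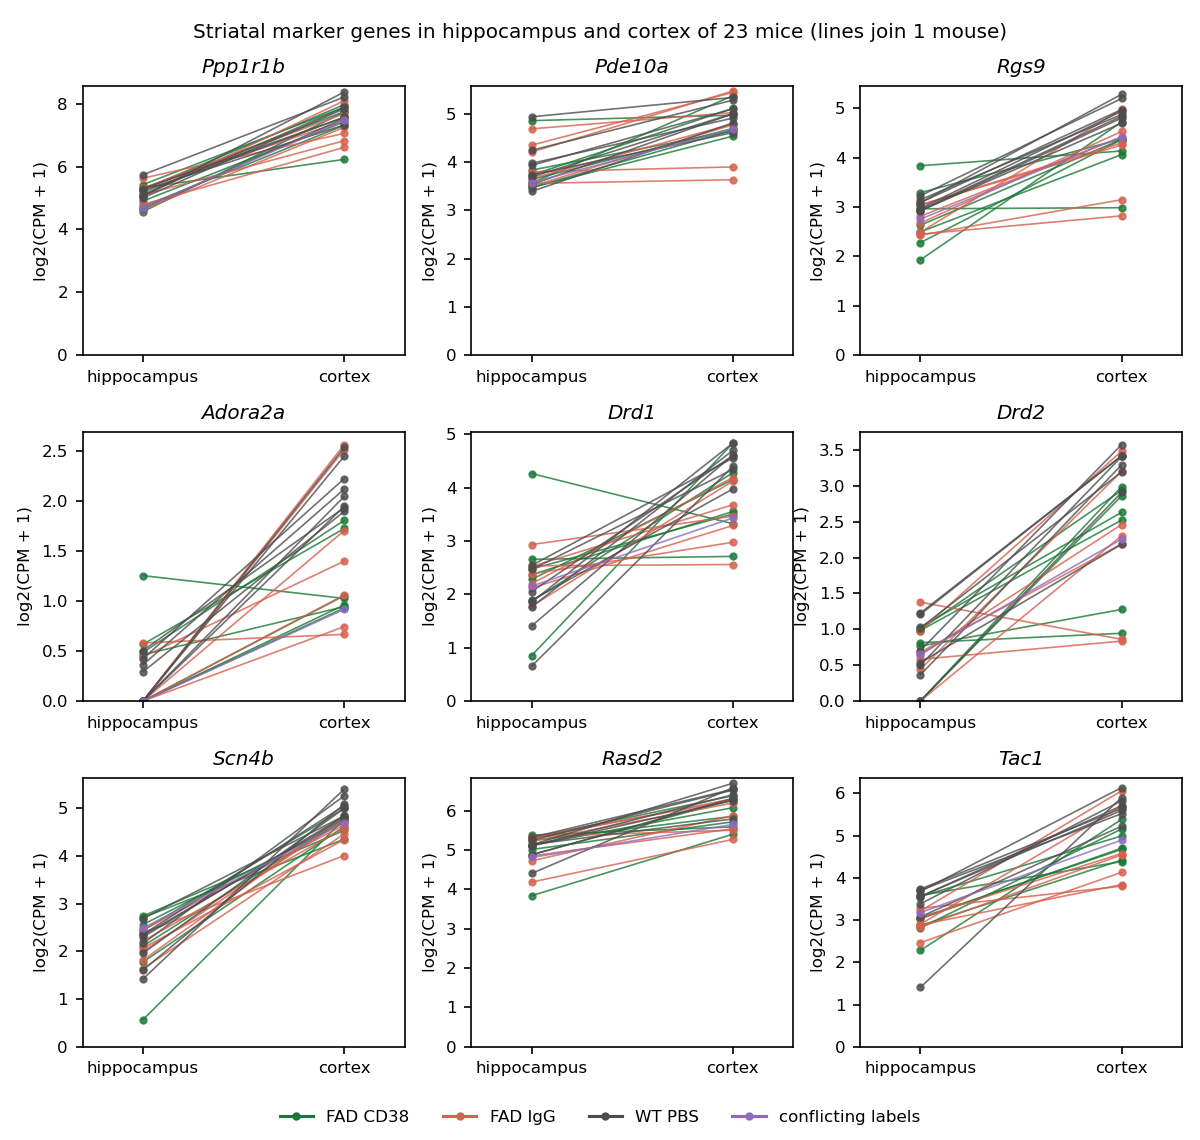
Log2(CPM + 1) of the 9 genes in hippocampus (left) and cortex (right) of 23 mice, with a line for each mouse coloured by group. The lines go up from hippocampus to cortex in at least 22 of 23 mice for every gene.

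No comparison of groups within hippocampus had a part in choosing the genes. Of the 7 genes tested, 0 passed in FAD CD38 against WT, where 5.31% of all genes did, 0 in FAD IgG against WT, where 4.89% did, and 0 in FAD CD38 against FAD IgG, where 0% did (edgeR). None of these 7 had an unadjusted p under 0.05 in any of the 3 contrasts, and DESeq2 called 0. Drd1 was the only gene with a large positive difference. It ran from 0.8033 to 18.2 CPM with a median of 4.162 in FAD CD38, from 2.430 to 6.631 with a median of 4.221 in FAD IgG, and from 0.5726 to 4.825 with a median of 2.657 in WT PBS hippocampus. Its log2 fold change was 0.91 ± 0.47 (SE) in FAD CD38 against WT (adjusted p = 0.326, edgeR) and 0.76 ± 0.49 in FAD IgG against WT (adjusted p = 0.529), opposite in sign to cortex. Without 1 pool the first of these values ran from 0.40 (pool 7 removed) to 1.1, and the second from 0.465 (pool 9 removed) to 1.0. The difference between the regions in this effect was not tested.

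The other genes lay closer to 0 in hippocampus. Tac1 averaged 7.48 ± 2.57 CPM in FAD CD38, 6.83 ± 1.41 CPM in FAD IgG and 9.52 ± 3.56 CPM in WT PBS hippocampus (SD, n = 7, 7 and 8), with log2 fold changes of -0.32 ± 0.26 (SE) in FAD CD38 against WT (adjusted p = 0.553, edgeR) and -0.52 ± 0.26 in FAD IgG against WT (adjusted p = 0.372). Rgs9 stood at -0.22 ± 0.25 and -0.44 ± 0.26 in the same contrasts. Ppp1r1b averaged 33.4 ± 7.57 CPM in FAD CD38, 34.6 ± 8.32 CPM in FAD IgG and 35.5 ± 8.08 CPM in WT PBS hippocampus. The medians of the 7 fold changes were -0.06 in FAD CD38 against WT and -0.10 in FAD IgG against WT. Adora2a was at 0 in 3 of 7 FAD CD38, 5 of 7 FAD IgG and 4 of 8 WT PBS hippocampus wells, and Drd2 in 2, 1 and 1, so no difference in these receptors was detectable at this depth.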

How the data were processed

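The deposited table held whole-number counts per gene and well, not normalized, per the file headers. Per the submitters' processing notes the authors used bcl2fastq 2.17 and STAR 2.5.3a. Genome build, annotation, counting program and collapse of molecular identifiers were not given in the sources used here. A deposited sample was a sequencing pool, so a well's region, mouse, genotype and injection were read from the deposited sample sheet, and the mouse was the replicate.

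Counts were fitted per region with edgeR 4.0.16 (R 4.3.3) by its robust quasi-likelihood test on TMM-scaled libraries, after filterByExpr at its minimum count of 10 and total of 15, with all 3 groups in 1 fit and the pool as an additive factor. Hippocampus was compared with cortex over 23 mice with the mouse as block, since both regions come from the same animals. All tests are two-sided, and calls were made at 0.05 on p-values adjusted by Benjamini-Hochberg over every gene tested. Standard errors were the fold change over the root of the F statistic. Correlations used log2 CPM with prior count 2, and z-scores were taken over the wells of a region.

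The members, the gene lists and the named genes (all members, plus the 10 genes of highest correlation with them) were chosen with earlier results of these data known. Of those 10 genes, 1 is not reported here. Alternatives were DESeq2 1.42.0, RLE factors, no filter, a mean of at least 10 counts, no pool term, only the 2 groups compared, each pool left out, no mouse block and, for correlations, a prior count of 0.5 and other centring. In 148 pairs of replicates, chi-square over degrees of freedom was at least 2.55, so no library was a repeat of another. The fits were tested on simulated counts with the same spread for every gene and no difference between pools. Those tests do not cover genes that vary as the members did. Totals of 1270918 to 5101368 counts per well leave the receptor genes with few counts, and Adora2a and Drd2 failed the filter in hippocampus. Promoter windows are RefSeq's on GRCm38.p6 and were used for sequence only.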

Additional observations from a re-analysis of the deposited data

Results flagged for a closer look

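Among 54 groups of wells examined for a value far from the rest, 5 stood out, all in hippocampus, and chance flags about 1 in 20 such groups. Pde10a was at 28 CPM in FAD CD38 replicate 4, where the next of 7 wells was at 13.3, and at 29.6 CPM in WT PBS replicate 9, where the next of 8 was at 18. Drd1 was at 18.2 CPM in FAD CD38 replicate 4 (26 counts), with the next well at 5.30. That well had the lowest total of the hippocampus wells, 1428454 counts. Adora2a was at 1.39 CPM in FAD CD38 replicate 3, which is 4 counts, with the next well at 0.482. Tac1 was at 1.65 CPM in WT PBS replicate 9 (4 counts), below the next well at 7.42. In that well 17.3% of the counts were of the ribosomal RNA genes mt-Rnr1, mt-Rnr2 and n-R5-8s1. The part of depth or RNA composition in these values was not tested.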

How the results depend on the processing

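With genes called at an adjusted p of 0.05, the number of the 9 genes lower in FAD IgG than in WT cortex was 1. The genes were chosen by this contrast, so its counts show only how calls move with the fit. It was 3 with DESeq2, 2 with the pool left out of the model, 0 when the 2 groups were fitted alone and 0 to 7 over the fits without 1 pool, where the median log2 fold change ran from -1.11 to -0.44. Over all genes in FAD IgG against WT, 156 of 12968 were called lower with DESeq2 and 88 of 12968 without the pool term. With the 2 groups alone 26 of 12759 were, and without 1 pool 15 (pool 5 removed) to 210 (pool 7 removed). In FAD CD38 against WT cortex, which shares the WT wells, the count among the 9 genes was 0. It was 2 with DESeq2, 1 with the pool left out of the model, 5 when the 2 groups were fitted alone and 0 to 2 without 1 pool. Over all genes in FAD CD38 against WT, 314 of 12968 were called lower with DESeq2, 166 of 12968 without the pool term and 303 of 12572 with the 2 groups alone. Without 1 pool this number ran from 32 (pool 8 removed) to 293 (pool 10 removed). The following were chosen after seeing the data. Without the 2 cortex wells of highest ribosomal RNA share, FAD IgG replicates 4 and 5, the count for FAD IgG against WT was 0, while Scn4b was at -0.61 against -0.57 with them and the median at -0.67 against -0.62. Over all genes, 16 of 13270 were called lower in that fit. Assigning the mouse whose labels disagree to IgG gave 3, where 126 of all 13065 genes were called lower. Assigning it to CD38 gave 1 for FAD CD38 against WT, where 245 of 13065 were. The direction against WT in cortex was the same for all 9 genes in every fit that held them. Adora2a was absent from the fit with a mean of at least 10 counts and from that of FAD CD38 and WT wells alone.

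Between FAD CD38 and FAD IgG cortex the median ran from -0.24 to 0.26 without 1 pool, and 6 genes changed sign in at least 1 fit, Drd1 (0.32 with all pools) among them. The ranges without 1 pool were -0.080 to 0.59 for Drd1, -0.32 to 0.66 for Drd2, -0.24 to 0.26 for Pde10a, -0.11 to 0.25 for Rasd2, -0.26 to 0.26 for Rgs9 and -0.28 to 0.44 for Tac1. Drd2 was also at -0.033 with DESeq2, -0.0097 with that mouse in the CD38 group and -0.096 without the 2 wells of highest ribosomal RNA share. In that last fit Rasd2 was at -0.084, and Tac1 was at 0.14 when the 2 groups were fitted alone. In hippocampus the sign changed only for uncalled differences. Without 1 pool, FAD CD38 against FAD IgG ran from -0.51 to 0.46 for Drd1, -0.080 to 0.23 for Ppp1r1b, -0.11 to 0.23 for Rasd2 and -0.083 to 0.40 for Rgs9. FAD CD38 against WT ran from -0.36 to 0.15 for Pde10a, -0.19 to 0.015 for Ppp1r1b and -0.090 to 0.11 for Rasd2, and FAD IgG against WT from -0.14 to 0.040 for Rasd2 and -0.24 to 0.063 for Scn4b. With the 2 groups fitted alone, Ppp1r1b was at -0.0054 in FAD CD38 against FAD IgG, Rasd2 at -0.017 in FAD CD38 against WT and Scn4b at 0.0010 in FAD IgG against WT. With the pool left out of the model, Ppp1r1b was at -0.021 in FAD CD38 against FAD IgG and Pde10a at -0.0071 in FAD IgG against WT. Rasd2 in FAD CD38 against WT was at -0.0081 with DESeq2, -0.0091 with RLE factors and -0.021 with no filter on low counts. For hippocampus against cortex the median without 1 pool ran from -2.11 to -1.90, and without the mouse block it was -2.01. Groups were compared within pools, since the pool was a block in the model. Replicate numbers pair no mice, because no animal was in more than 1 group. Depth limits Adora2a and Drd2 most, and causes of these changes were not tested.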
